A study of Mus musculus with 24 samples.

Results

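The genes described here are 42 mouse genes of the interferon response and of MHC class I antigen presentation, followed in whole lung during ozone exposure. They are a fixed list of names, and a gene was read on the array through the probe set with its symbol that had the highest mean. Of the 42 genes, 39 had a probe set with their symbol alone and 34 had enough signal to be tested, among 12393 genes with a probe set and 8002 genes tested. Isg15 and Psme2 lay only on probe sets that carry several symbols and Ifi44 had no probe set of its own, so these were not analysed here. By role, the 34 tested genes were 5 transcription factors, 15 antiviral effectors and regulators, 6 interferon-inducible GTPases and 8 genes that supply peptides to MHC class I.

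The samples were left lung lobes of male mice from a pair of related strains, one array for the lung of each mouse, with 3 mice in each of 8 groups and 24 arrays in all. C3H/HeOuJ mice (OuJ) have a sufficient Tlr4, the receptor for bacterial lipopolysaccharide, and C3H/HeJ mice (HeJ) carry a dominant negative Tlr4. In each strain 1 group breathed air and the other groups breathed ozone, an oxidant gas, for 6, 24 or 48 h. No source used here states the ozone concentration or the age of the mice, and a 72 h exposure named in the labels was not analysed here. Group means of the Tlr4 signal ran from 199 to 277, a level that does not report the mutation. Sftpc, Scgb1a1 and Ager, which mark alveolar type 2, club and alveolar type 1 cells, were at or above a signal of 12834.5 on all 24 arrays. In whole lung, fewer cells of a type and less RNA per cell cannot be told apart.

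Interferons act through receptors that activate STAT proteins, which enter the nucleus with or without IRF9 and switch on a large set of genes. Type I interferons act mainly through the interferon-stimulated response element and interferon gamma mainly through the gamma-activated site. Among the genes switched on are antiviral effectors, GTPases that attack the vacuoles of intracellular pathogens, and the immunoproteasome and TAP transporter that cut peptides and carry them to MHC class I molecules. Many of them are also expressed without infection, in immune and lining cells of the healthy lung.

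In OuJ lungs 11 of the 34 genes fell after 24 h of ozone and 11 fell after 48 h, and none rose. The genes that fell at 24 h were Tap1, Iigp1, Gbp2, Gbp2b, Nmi, Psmb8, Trim21, Psmb10, Usp18, Gbp3 and Irf8. Those that fell at 48 h were Tap1, Nmi, Ifit2, Usp18, Gbp2b, Iigp1, Psmb10, Trim21, Psmb9, Gbp2 and Psmb8. A gene was called when limma's adjusted p, taken over all 8002 genes, was under 0.05. Gbp3 passed the signal filter only because of its high air arrays, so its call at 24 h is not taken as support. The 11 genes are 32.4% of those tested at each time, and over all genes 3.42% were called lower at 24 h and 4.24% at 48 h, and 3.16% and 3.7% higher. The median change of the 34 genes was -0.44 at 24 h and -0.39 at 48 h on the log2(signal + 16) scale, beside -0.03 and -0.02 over all genes tested. Of these calls 9 were shared by the 24 h and 48 h comparisons, which use the same 3 air arrays. The count at 24 h was 6 when replicate 1 or 2 of OuJ air or replicate 3 of OuJ 24 h was left out. The count at 48 h was 5 when replicate 1 of OuJ air or of OuJ 48 h was left out, 4 when replicate 2 of OuJ air was, and 3 when replicate 3 of OuJ 48 h was. With the arrays centred on their medians, the count at 24 h was 7, and the share of lower genes among all called genes was 33.9% in place of 52.0%.

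In HeJ lungs 6 of the 34 genes fell after 24 h and 7 fell after 48 h, and again none rose. At 24 h these were Gbp2b, Nmi, Irf8, Tapbp, Psmb10 and Psme1, and at 48 h Tap1, Ifit2, Irf8, Rsad2, Psmb9, Nmi and Psmb8. They are 17.6% and 20.6% of the genes tested, and over all genes 3.96% were called lower at 24 h and 6.47% at 48 h, and 3.16% and 5.69% higher. The median change was -0.31 at 24 h and -0.21 at 48 h, beside -0.02 and -0.03 over all genes. The 24 h and 48 h comparisons, which share the HeJ air arrays, had the calls of Irf8 and Nmi in common. The count at 24 h was 3 when replicate 2 of HeJ air, or replicate 1 or 3 of HeJ 24 h, was left out, and it was 0 when the 4 arrays whose sample codes carry a suffix were left out, which leaves 1 array at HeJ 24 h. The count at 48 h was 4 when replicate 1 or 3 of HeJ air or replicate 3 of HeJ 48 h was left out, and 3 when replicate 2 of HeJ 48 h was.

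**Figure D1:**
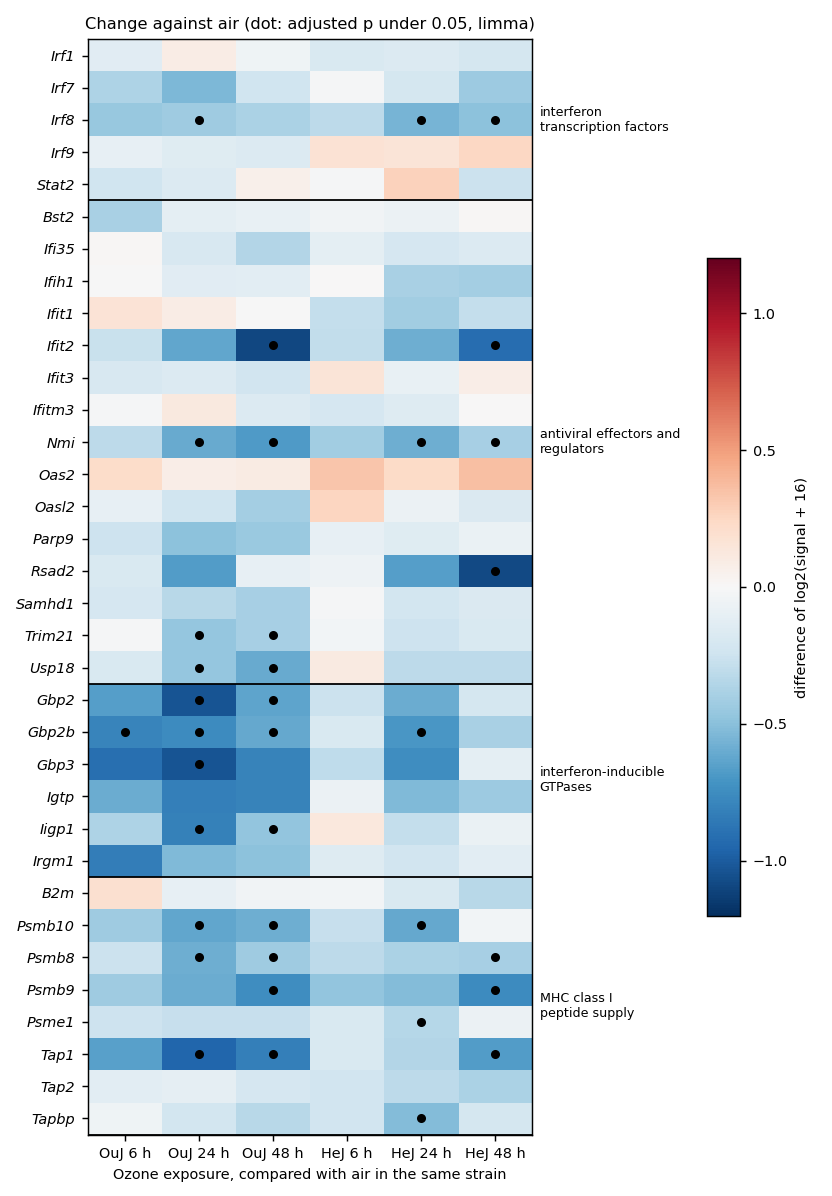
Change of each of the 34 tested genes against air in the same strain, as a colour for the difference of log2(signal + 16), with genes in rows grouped by role and the 6 comparisons in columns. Blue is lower and red is higher than air, and a dot marks an adjusted p under 0.05 in limma; dots lie on 16 genes and all of them on blue cells.

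Each sample has a code in its label, of 3 series in all, and the series moves with the exposures. Air and 6 h arrays of both strains carry codes of series 3, OuJ arrays at 24 and 48 h carry series 10, and HeJ arrays at 24 and 48 h carry series 13. For the comparisons of 24 h and 48 h with air, code series and ozone therefore cannot be told apart. For the strain differences of the 24 h and 48 h changes, the same holds for code series and strain. The 6 h comparisons, the strains in air and 48 h against 24 h lie within a series. The 5' to 3' signal ratio of the Gapdh control probes, which falls when RNA or cRNA is short, was 0.781 to 1.03 on OuJ arrays and 0.497 to 0.944 on HeJ arrays. It was 0.511 to 0.621 at HeJ air and 0.605 to 0.944 at HeJ 24 h, and its part in the changes was not tested.

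At 6 h few genes passed. In OuJ, Gbp2b alone was lower (2.94% of the genes tested, beside 0.05% over all genes), and the median change was -0.24. The count was 0 without OuJ air replicate 2, OuJ 6 h replicate 1 or OuJ 6 h replicate 3, 2 without OuJ air replicate 3 or HeJ 6 h replicate 1, and 3 without OuJ 6 h replicate 2 or HeJ 6 h replicate 3. In HeJ limma called 0 of the 34 genes at 6 h, with 4 at an unadjusted p under 0.05, where 0.0375% of all genes were called in either direction, and the median change was -0.13. Averaged over both strains, 3 genes were lower at 6 h, Gbp2b, Irf8 and Nmi (8.82%, beside 0.387% over all genes). That count was 0 without OuJ air replicate 2, OuJ 6 h replicate 1, OuJ 6 h replicate 3 or HeJ 6 h replicate 3, and 1 without OuJ air replicate 1 or HeJ air replicate 1. It was 6 without OuJ 6 h replicate 2 and 9 without HeJ 6 h replicate 1. With median centring the share of lower genes among all called genes was 10.5% in place of 36.4% for OuJ at 6 h, 50% in place of 66.7% for HeJ at 6 h, and 19.0% in place of 33.0% for the average.

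A plain count of separated arrays does not use the model. After 24 h in OuJ the 3 exposed arrays were all below the 3 air arrays for 16 of the 34 genes (47.1%), against 15% of all genes tested, and after 48 h for 21 (61.8%), against 17.3%. In HeJ this held for 17 genes at 24 h (50%), against 13.6%, and for 14 at 48 h (41.2%), against 17.1%. At 6 h it held for 9 genes in OuJ (26.5%), against 9.04%, and for 3 in HeJ (8.82%), against 7.04%.

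The median over the 34 genes was also taken within each array. In OuJ the median difference of the 34 genes from the air mean was -0.34, -0.43 and -0.39 on the 24 h arrays and -0.36, -0.37 and -0.42 on the 48 h arrays, where the air arrays lay between -0.13 and 0.05. In HeJ it was -0.29, -0.32 and -0.37 at 24 h and -0.21, -0.20 and -0.26 at 48 h, where the air arrays lay between -0.05 and 0.05. At 6 h the OuJ arrays gave -0.25, -0.11 and -0.39 and the HeJ arrays 0.03, -0.11 and -0.31. The arrays at 24 h and 48 h were thus all below the air arrays of their strain, while the 6 h arrays overlapped with air.

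**Figure D2:**
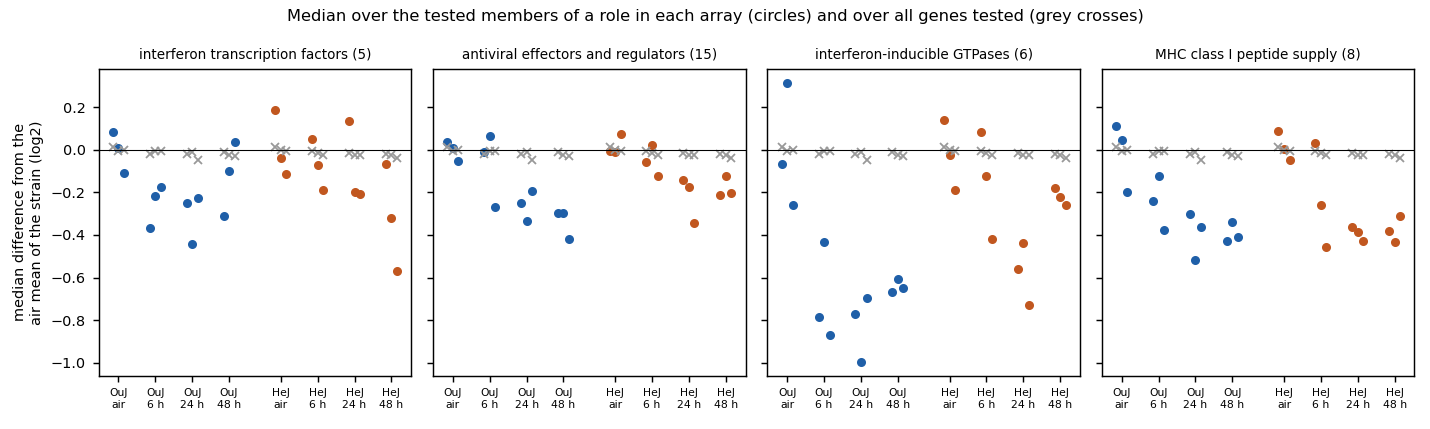
Median difference from the air mean of the strain, in log2(signal + 16), over the tested genes of each role on each array (circles, OuJ blue and HeJ orange) and over all genes tested (grey crosses); panel titles give the number of genes. The 6 GTPases reach the lowest values in OuJ, and the grey crosses stay near 0 on every array.

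Among the 5 transcription factors Irf8 fell and the others did not pass in any comparison. Irf8 is a myeloid and B cell factor of the interferon regulatory family. Its signal in OuJ was 1133, 995 and 948 in air, 717, 816 and 692 at 6 h, 744, 729 and 804 at 24 h, and 766, 796 and 782 at 48 h. All exposed OuJ arrays lay below all OuJ air arrays. The HeJ signals were 1178, 1128 and 1169 in air, 1024, 1027 and 762 at 6 h, 806, 890.4 and 662 at 24 h, and 891, 898 and 684 at 48 h. Here too every exposed array was below every air array.

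The change of Irf8 was -0.42 ± 0.13 (SE) in OuJ at 24 h (adjusted p = 0.0481, limma), -0.56 ± 0.13 in HeJ at 24 h (0.00841) and -0.49 ± 0.13 in HeJ at 48 h (0.0136). At 6 h, averaged over the strains, it was -0.39 ± 0.09 (adjusted p = 0.0317), and at 48 h in OuJ -0.38, which did not pass. The OuJ call at 24 h was lost in 21 of 34 alternative settings, among them leaving out any array of OuJ air or OuJ 24 h. The second probe set of Irf8 gave -0.54 in OuJ at 24 h but -0.18 and -0.19 in HeJ at 24 and 48 h, and both HeJ calls were lost when the probe sets were averaged. The HeJ call at 24 h was also lost without HeJ 24 h replicate 3 and without the 4 arrays with a suffix, and the call at 48 h without HeJ 48 h replicate 3. The averaged 6 h call was lost in 13 of 35 settings.

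Promoter windows were read from RefSeq for GRCm38.p6, 250 bases before to 50 bases from the annotated start of the gene, and were found for 35 of the 42 genes. They were searched on both strands for the core of the interferon-stimulated response element, GAAANNGAAA (TTTCNNTTTC on the other strand), and for the gamma-activated site, TTCNNNGAA, with overlapping matches counted apart. The first was in the windows of 18 of 35 genes (51.43%) and in 3.99% of all 27025 genes with a window, and the second in 10 of 35 (28.57%) and in 9.55%. A match describes the letters only. Of 14 genes with a window that fell in at least 1 comparison with air, 6 held the first motif and 3 the second. Of 15 tested genes with a window that fell in none, 9 held the first and 6 the second. The window of Irf8, chr8:120736108-120736407 on the plus strand, is shown because this factor was the one that fell. RefSeq gives Irf8 a further start with a window that holds neither motif, and a gene was counted when any of its windows held a match. The capitals of the window shown mark gamma-activated sites whose first bases are at -171 and -153 from the start.
Irf8: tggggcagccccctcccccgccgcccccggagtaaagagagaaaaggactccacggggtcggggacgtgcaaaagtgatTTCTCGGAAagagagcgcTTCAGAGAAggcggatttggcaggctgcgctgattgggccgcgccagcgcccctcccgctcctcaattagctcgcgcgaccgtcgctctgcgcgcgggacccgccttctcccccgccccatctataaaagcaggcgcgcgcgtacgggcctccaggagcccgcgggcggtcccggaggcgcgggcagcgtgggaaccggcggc

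The other transcription factors showed smaller or mixed values. Irf7, the amplifier of type I interferon production, had signals of 389.9, 373 and 351 in OuJ air and 248, 235 and 270.5 at 24 h, a change of -0.53 that did not pass (adjusted p = 0.102, limma) although no arrays overlapped. Irf1, which drives many interferon gamma targets, changed by -0.22 to 0.09 over the 6 comparisons with air. Irf9 lay between -0.16 and 0.24 and Stat2 between -0.26 and 0.28. Irf9 and Stat2 form the complex that binds the interferon-stimulated response element, and neither passed in any comparison.

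Of the 15 antiviral effectors and regulators, 3 fell in OuJ at 24 h, 4 in OuJ at 48 h, 1 in HeJ at 24 h and 3 in HeJ at 48 h. Over all genes 3.42%, 4.24%, 3.96% and 6.47% were called lower in these 4 comparisons. The count of 1 of 15 in HeJ at 24 h is near that share, and nothing is read from it about the role. Nmi, a partner protein of STAT factors, fell in all 4 comparisons. Its signal in OuJ was 717, 695 and 684 in air, 582, 605 and 492 at 6 h, 464, 467 and 428 at 24 h, and 412, 484 and 398 at 48 h. The HeJ signals of Nmi were 764, 608 and 814 in air, 615, 548 and 457 at 6 h, 422, 511 and 506 at 24 h, and 496, 559 and 578 at 48 h. In both strains all arrays at 24 and 48 h lay below all air arrays.

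Nmi was lower by 1.53-fold in OuJ at 24 h (-0.61 ± 0.13, adjusted p = 0.00435, limma) and by 1.60-fold at 48 h (-0.68 ± 0.13, adjusted p = 0.00165). In HeJ the change was -0.58 ± 0.13 at 24 h (adjusted p = 0.0062) and -0.40 ± 0.13 at 48 h (adjusted p = 0.0400). Both OuJ calls held in all 34 alternative settings. The HeJ call at 24 h was lost only when the 4 arrays with a suffix were left out, and the HeJ call at 48 h was lost in 9 settings, among them without any 1 of the HeJ 48 h arrays and without HeJ air replicate 1 or 3.

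Ifit2, a member of the IFIT family that binds viral RNA, passed at 48 h in both strains. Its signal in OuJ was 366, 328 and 265 in air, 253, 196 and 162 at 24 h, and 126, 207 and 105 at 48 h. The HeJ signals of Ifit2 were 208, 332 and 325 in air, 180.0, 204 and 165 at 24 h, and 120.2, 152 and 158 at 48 h. The arrays did not overlap with air at 24 h or 48 h in either strain. At 48 h it was 2.13-fold lower in OuJ (-1.09 ± 0.22, adjusted p = 0.00316, limma) and 1.89-fold lower in HeJ (-0.91 ± 0.22, adjusted p = 0.00791). At 24 h the changes of -0.62 in OuJ and -0.59 in HeJ did not pass (adjusted p = 0.0938 and 0.106). The OuJ call at 48 h held in all alternative settings and the HeJ call was lost only without the 4 arrays with a suffix.

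Its relatives Ifit1 and Ifit3 passed in no comparison with air. Ifit1 changed by 0.16, 0.09 and -0.0047 at 6, 24 and 48 h in OuJ, and by -0.29, -0.41 and -0.28 in HeJ. All exposed HeJ arrays of Ifit1, from 285 to 459, were below HeJ air, from 468 to 560. Ifit3 changed by -0.23 to 0.16 over the 6 comparisons. Ifit3 read 1086, 1129 and 1099.9 in OuJ air and 1001, 1007 and 822 at 48 h, and in HeJ 1006, 857 and 872 in air and 1038, 834 and 1033 at 48 h. The window of Ifit3, chr19:34583279-34583578 on the plus strand, is shown as that of a gene with response element matches that passed in no comparison, with the matches at -156 and -122 in capitals.
Ifit3: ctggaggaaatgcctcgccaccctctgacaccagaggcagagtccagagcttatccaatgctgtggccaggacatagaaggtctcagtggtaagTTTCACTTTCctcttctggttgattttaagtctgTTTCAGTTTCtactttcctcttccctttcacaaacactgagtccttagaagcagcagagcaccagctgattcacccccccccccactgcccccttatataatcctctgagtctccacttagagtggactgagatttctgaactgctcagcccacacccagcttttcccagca

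Usp18 and Trim21 fell in OuJ and did not pass in HeJ. Usp18, an ISG15-removing protease that dampens type I interferon signalling, read 424, 435 and 441 in OuJ air, 369.8, 266 and 302 at 24 h, and 302, 297 and 241 at 48 h. Its change was -0.46 ± 0.14 at 24 h (adjusted p = 0.0410, limma) and -0.61 ± 0.14 at 48 h (adjusted p = 0.00663), with no overlap with air. In HeJ it was -0.31 at both times, and the arrays were all below HeJ air at 24 h and overlapped with it at 48 h. The 24 h call was lost in 10 of 34 settings, including without any 1 of the OuJ air arrays and without OuJ 24 h replicate 2 or 3, and the 48 h call was lost only without OuJ 48 h replicate 3.

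Trim21, a ubiquitin ligase that recognises antibody-coated virus in the cytosol, read 597, 596 and 587 in OuJ air, 419, 441 and 415 at 24 h, and 459.6, 480.0 and 403 at 48 h. It fell by 0.47 ± 0.12 at 24 h (adjusted p = 0.0186, limma) and by 0.40 ± 0.12 at 48 h (adjusted p = 0.0389), and no exposed array overlapped with air. The changes in HeJ were -0.25 and -0.18, and there too all arrays at 24 and 48 h were below air. The 24 h call was lost without OuJ air replicate 1 or 2 or OuJ 24 h replicate 1 or 3. The 48 h call was lost without any 1 of the OuJ air arrays and without OuJ 48 h replicate 1 or 3. It was also lost with no filter on low values and when the probe sets were averaged. The second probe set of Trim21 gave -0.42 at 24 h and -0.25 at 48 h in OuJ, and -0.15 at both times in HeJ.

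Rsad2 (viperin), a radical SAM enzyme that blocks viral replication, fell in HeJ at 48 h. Its signal was 993, 918 and 1238 in HeJ air and 616, 362 and 507 at 48 h, with no overlap, and the change was -1.08 ± 0.29 (2.12-fold lower, adjusted p = 0.0155, limma). In OuJ it read 793, 996 and 698 in air and 665, 525 and 1269 at 48 h, where replicate 3 was the highest of the 6 arrays and the change was -0.10. The strain difference of the 48 h change was 0.98 ± 0.41 and did not pass (adjusted p = 0.517). All 3 probe sets of Rsad2 were lower in HeJ at 48 h, the others by 0.68 and 1.26. The call was lost without HeJ air replicate 3 or HeJ 48 h replicate 2.

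The other 10 genes of this role passed in no comparison with air. They were Bst2, Ifi35, Ifih1, Ifit1, Ifit3, Ifitm3, Oas2, Oasl2, Parp9 and Samhd1. Ifitm3, a membrane protein that blocks virus entry, had signals from 6172 to 9976 over the 24 arrays and changed by -0.21 to 0.12. Oas2, which makes the second messenger for RNase L, was the one tested gene whose estimate was above 0 in all 6 comparisons, from 0.08 to 0.37. The 4 probe sets of Samhd1 above the signal filter differed in sign in OuJ at 24 and 48 h, from -0.42 to 0.41 at 48 h. Eif2ak2, Mx1 and Mx2 did not pass the signal filter and had signals of 89.7 to 221, 26.1 to 86.2 and 17 to 41.5.

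The 6 interferon-inducible GTPases had the largest median fall in OuJ of the 4 roles, -0.73 at 6 h, -0.82 at 24 h and -0.62 at 48 h. Called lower in OuJ were 1 at 6 h, 4 at 24 h and 3 at 48 h. The 4 at 24 h include Gbp3, which was tested because of its high air arrays. In HeJ the medians were -0.17, -0.56 and -0.17, and Gbp2b at 24 h was the 1 call. Over all genes 0.05%, 3.42% and 4.24% were called lower in OuJ at 6, 24 and 48 h, and 3.96% in HeJ at 24 h. Guanylate-binding proteins (Gbp2, Gbp2b, Gbp3) coat pathogen vacuoles and the immunity-related GTPases (Iigp1, Igtp, Irgm1) load onto or regulate the loading of those membranes. The guanylate-binding genes are close paralogs in a cluster, and probe sets of this family may bind transcripts of more than 1 member. Windows were found for 5 of 6 genes of this role, and each of the 5 had a window with a match to the interferon-stimulated response element. Gbp3 also has a window at a further start that holds neither motif. The windows of Gbp2b (chr3:142594597-142594896, plus strand), Gbp2 (chr3:142620413-142620712, plus strand) and Irgm1 (chr11:48871371-48871670, minus strand) are shown as examples, with matches at -137, at -59, and overlapping at -30 and -24 in capitals.
Gbp2b: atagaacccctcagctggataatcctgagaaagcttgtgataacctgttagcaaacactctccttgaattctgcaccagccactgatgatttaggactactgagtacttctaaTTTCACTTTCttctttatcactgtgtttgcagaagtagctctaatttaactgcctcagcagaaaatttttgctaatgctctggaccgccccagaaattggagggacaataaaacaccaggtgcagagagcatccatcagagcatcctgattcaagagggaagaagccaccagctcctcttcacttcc
Gbp2: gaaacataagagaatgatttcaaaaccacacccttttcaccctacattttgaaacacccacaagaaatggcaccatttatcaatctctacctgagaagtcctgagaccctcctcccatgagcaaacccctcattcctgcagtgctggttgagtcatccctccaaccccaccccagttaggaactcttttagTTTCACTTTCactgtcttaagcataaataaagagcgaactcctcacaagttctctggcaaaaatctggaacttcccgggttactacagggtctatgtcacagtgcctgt
Irgm1: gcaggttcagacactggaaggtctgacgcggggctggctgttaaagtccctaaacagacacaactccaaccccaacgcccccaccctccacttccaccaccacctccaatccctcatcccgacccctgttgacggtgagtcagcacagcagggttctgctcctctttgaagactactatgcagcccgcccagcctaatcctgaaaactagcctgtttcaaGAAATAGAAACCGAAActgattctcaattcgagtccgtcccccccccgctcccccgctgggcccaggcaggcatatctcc

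Gbp2b, whose window is printed first, was the one gene that passed at 6 h in a single strain. Its signal in OuJ was 908, 1213 and 881 in air, 536, 709 and 475 at 6 h, 583, 530.0 and 635 at 24 h, and 618, 679.6 and 628 at 48 h. The HeJ signals of Gbp2b were 765, 813 and 769 in air, 797, 699 and 579 at 6 h, 418, 556 and 463 at 24 h, and 601, 534 and 646 at 48 h. All exposed OuJ arrays were below OuJ air, and in HeJ this held at 24 h and 48 h but not at 6 h.

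In OuJ the change of Gbp2b was -0.79 ± 0.15 at 6 h (adjusted p = 0.0194, limma), -0.75 ± 0.15 at 24 h (adjusted p = 0.0025) and -0.62 ± 0.15 at 48 h (adjusted p = 0.011). In HeJ it was -0.70 ± 0.15 at 24 h (adjusted p = 0.0047), and -0.19 at 6 h and -0.39 at 48 h did not pass. Averaged over the strains the 6 h change was -0.49 ± 0.10 (adjusted p = 0.0171). The 24 h call in OuJ held in all settings. The 6 h call was lost in 6 of 35 settings, with adjusted p up to 0.185, and fitting the air and 6 h arrays of code series 3 alone was among them. The 48 h call was lost without OuJ air replicate 2 or OuJ 48 h replicate 3, and the HeJ call without the 4 arrays with a suffix.

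Gbp2 was at its lowest at 24 h. In OuJ it read 794, 936 and 690.1 in air, 484, 606 and 427 at 6 h, 453, 363 and 339.5 at 24 h, and 449.8, 589 and 504 at 48 h. In HeJ it read 549, 629 and 449 in air, 597, 497 and 298 at 6 h, 347, 403 and 306 at 24 h, and 483, 446 and 456 at 48 h. The exposed OuJ arrays did not overlap with air at any time, and the HeJ arrays did not at 24 h. The change in OuJ was -1.04 ± 0.19 at 24 h (2.05-fold lower, adjusted p = 0.00158, limma) and -0.63 ± 0.19 at 48 h (adjusted p = 0.0436). The 24 h call held in all settings, while the 48 h call was lost in 13 of 34, among them without OuJ air replicate 1 or 2 and OuJ 48 h replicate 1 or 3. The value in HeJ at 24 h, -0.60, did not pass (adjusted p = 0.0614), and the second probe set gave -0.77 there and -0.78 in OuJ at 48 h.

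Iigp1 was the gene of the list whose air level differed between the strains. It read 1344, 1694 and 1091 in OuJ air, 1027, 1256 and 888 at 6 h, 773, 739.7 and 789 at 24 h, and 977, 992 and 949 at 48 h. In HeJ it read 887, 799.6 and 851 in air, 868, 960.2 and 941 at 6 h, 752, 628 and 698 at 24 h, and 835, 742 and 827 at 48 h. In OuJ every array at 24 and 48 h was below every air array. Its change in OuJ was -0.81 ± 0.13 at 24 h (adjusted p = 0.000462, limma) and -0.47 ± 0.13 at 48 h (adjusted p = 0.0251), and in HeJ -0.28 and -0.08. The 24 h call held in all settings. The 48 h call was lost in 6, without OuJ air replicate 1 or 2, without any 1 of the OuJ 48 h arrays, and with only the groups compared. The second probe set gave larger falls in both strains, -1.15 at 24 h and -1.14 at 48 h in OuJ, and -0.94 and -0.25 in HeJ.

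Gbp3 fell in OuJ at 24 h, and Igtp and Irgm1 did not pass in any comparison. Gbp3 read 211, 473 and 344 in OuJ air and 168, 127 and 162 at 24 h, a change of -1.03 ± 0.31 (adjusted p = 0.0466, limma). The arrays did not overlap, but the call was lost in 21 of 34 settings, including without OuJ air replicate 2, which was the highest, or its replicate 3, or any 1 of the arrays at OuJ 24 h. Igtp read 988, 2083 and 774 in OuJ air and 699.5, 519 and 767 at 24 h, a change of -0.82 (adjusted p = 0.0901) in which OuJ air replicate 2 was again the highest array. Irgm1 read 663, 748 and 439 in OuJ air and 279, 406 and 324 at 6 h, its largest change at -0.83 (adjusted p = 0.0929).

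**Figure D3:**
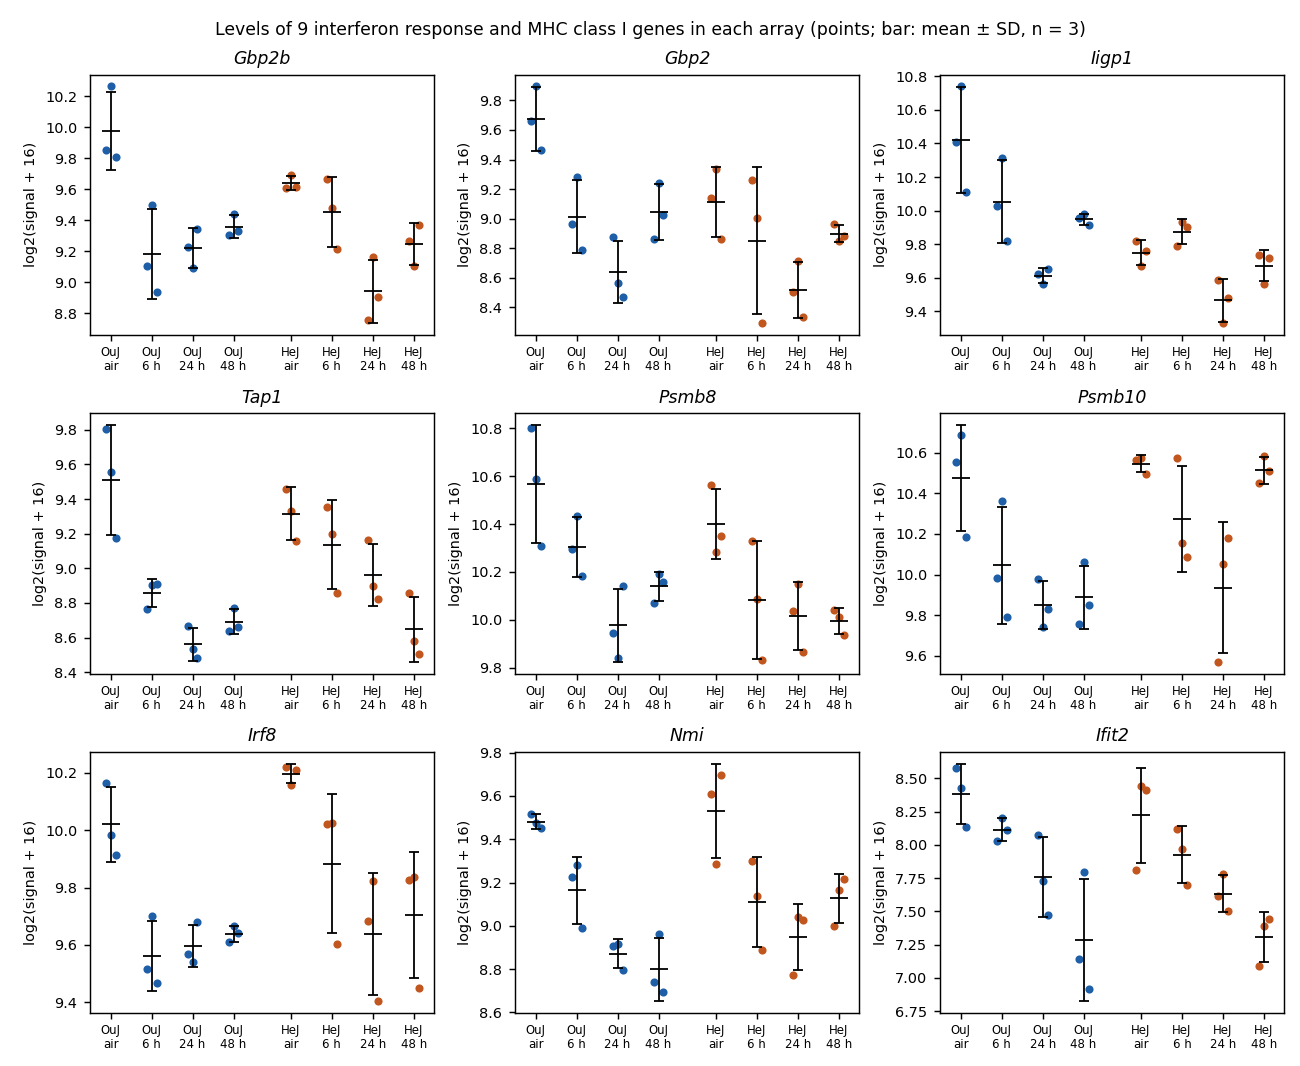
Level of 9 genes of the list on each array, as log2(signal + 16), by strain and exposure (OuJ blue, HeJ orange); the black bar is the mean ± SD of 3 arrays, and the axes differ between panels and do not start at 0. Within OuJ the means of Gbp2, Iigp1, Tap1 and Psmb8 are lowest at 24 h, the mean of Ifit2 is lowest at 48 h in each strain, and the HeJ arrays of Psmb10 lie below air at 24 h and overlap with air at 48 h.

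Of the 8 genes that supply peptides to MHC class I, 3 fell in OuJ at 24 h, 4 in OuJ at 48 h, 3 in HeJ at 24 h and 3 in HeJ at 48 h. The shares called lower over all genes tested were 3.42%, 4.24%, 3.96% and 6.47% in these comparisons. The estimates of all 8 were below 0 in each of these comparisons, except that of Psmb10 in HeJ at 48 h with median centring, with medians of -0.43, -0.38, -0.37 and -0.35. Tap1, a chain of the transporter that moves peptides into the endoplasmic reticulum, and Psmb9, an immunoproteasome subunit, are neighbours that are read in opposite directions. Their 300-base windows share 275 identical bases, and the one of Tap1 (chr17:34187306-34187605, plus strand) is shown for both. It holds neither motif, which says only that these letters are not in this window. The window of Psmb8 (chr17:34197945-34198244, plus strand) is shown because it holds the 1 gamma-activated site of this role, at -97 in capitals.
Tap1: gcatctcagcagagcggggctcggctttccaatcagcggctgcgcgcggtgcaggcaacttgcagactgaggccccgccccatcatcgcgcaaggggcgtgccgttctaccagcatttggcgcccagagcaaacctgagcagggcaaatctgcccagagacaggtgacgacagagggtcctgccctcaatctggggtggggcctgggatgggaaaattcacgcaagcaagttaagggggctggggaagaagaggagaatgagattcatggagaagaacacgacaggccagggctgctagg
Psmb8: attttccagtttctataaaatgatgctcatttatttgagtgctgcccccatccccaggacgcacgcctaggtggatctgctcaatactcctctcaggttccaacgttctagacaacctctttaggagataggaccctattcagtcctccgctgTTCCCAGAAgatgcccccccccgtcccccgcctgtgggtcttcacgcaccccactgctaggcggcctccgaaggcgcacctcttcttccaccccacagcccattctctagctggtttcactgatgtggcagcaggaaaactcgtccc

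Tap1 passed in 3 of the 6 comparisons with air. In OuJ it read 877, 736 and 562 in air, 419, 462 and 465 at 6 h, 390.5, 354 and 341 at 24 h, and 383, 421 and 388 at 48 h. In HeJ it read 689, 628 and 555 in air, 639, 572 and 448 at 6 h, 558, 460.5 and 437 at 24 h, and 449, 366 and 347 at 48 h. All exposed OuJ arrays were below OuJ air, and in HeJ only the 48 h arrays were all below air. In OuJ the change was -0.95 ± 0.15 at 24 h (1.93-fold lower, adjusted p = 0.000358, limma) and -0.82 ± 0.15 at 48 h (1.77-fold lower, adjusted p = 0.00136). In HeJ it was -0.67 ± 0.15 at 48 h (adjusted p = 0.00469), and -0.35 at 24 h did not pass (adjusted p = 0.154). These 3 calls held in all 34 settings. At 6 h in OuJ the change of -0.65 missed the threshold (adjusted p = 0.0549).

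The partner chain Tap2 changed less than Tap1 in OuJ, by -0.13, -0.11 and -0.20 at 6, 24 and 48 h. It read 672, 695 and 636 in OuJ air and 566, 559.5 and 742 at 24 h, where replicate 3 was above all air arrays. In HeJ the changes of Tap2 were -0.23, -0.31 and -0.38, beside -0.18, -0.35 and -0.67 for Tap1. Every exposed HeJ array of Tap2, from 537 to 692, was below HeJ air, from 740 to 814. Tap2 passed in no comparison. B2m, the light chain of MHC class I, read 14279.9 to 14686 in OuJ air and 12223 to 15030.4 at 24 h and did not pass in any comparison either. Its lowest estimate was -0.33 in HeJ at 48 h (adjusted p = 0.0778, limma).

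The immunoproteasome subunits Psmb8, Psmb9 and Psmb10 replace constitutive subunits of the proteasome and favour peptides that fit MHC class I. Psmb8 read 1766, 1525 and 1252 in OuJ air, 971, 902 and 1114 at 24 h, and 1060.2, 1152 and 1125 at 48 h. In HeJ it read 1498, 1231 and 1289 in air and 1039, 1015 and 964 at 48 h. No exposed array overlapped with air in these comparisons. The change was -0.59 ± 0.13 in OuJ at 24 h (adjusted p = 0.00699, limma), -0.43 ± 0.13 in OuJ at 48 h (adjusted p = 0.0448) and -0.40 ± 0.13 in HeJ at 48 h (adjusted p = 0.0464). The first call was lost only without OuJ air replicate 1, and each of the 48 h calls in 18 of 34 settings. In OuJ these included leaving out OuJ air replicate 1 or 2 or any 1 of the OuJ 48 h arrays, and in HeJ any 1 of the HeJ air or HeJ 48 h arrays.

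Psmb9 was affected by 1 air array. It read 1549.5, 1479 and 751 in OuJ air and 715, 629 and 790.2 at 48 h, so that OuJ air replicate 3 lay among the exposed arrays, and in HeJ 1481, 1070.2 and 1042 in air and 814, 600.5 and 686 at 48 h, with no overlap. It fell by 0.75 ± 0.23 at 48 h in each strain (adjusted p = 0.0413 in OuJ and 0.0303 in HeJ, limma). The OuJ call was lost in 9 of 34 settings, and the change was -1.08 at its largest over the settings. These were without OuJ air replicate 1 or 2, any 1 of the OuJ 48 h arrays, or the 4 arrays with a suffix, and 3 of processing. The latter were no filter on low values, no intensity trend and only the groups compared. The HeJ call was lost when replicate 1 of HeJ air or replicate 2 or 3 of HeJ 48 h was left out. It was also lost with no filter and without the 4 arrays with a suffix.

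Psmb10 passed in both strains at 24 h and in OuJ at 48 h. In OuJ it read 1488, 1630.2 and 1149 in air, 991, 841 and 895 at 24 h, and 849, 1052 and 906 at 48 h. In HeJ it read 1498, 1507 and 1428 in air, 744, 1046 and 1144 at 24 h, and 1382, 1515 and 1441 at 48 h. The OuJ arrays were below air at both times, while in HeJ they were below air at 24 h and overlapped with air at 48 h. The change was -0.63 ± 0.16 in OuJ at 24 h (adjusted p = 0.0213, limma), -0.59 ± 0.16 in OuJ at 48 h (adjusted p = 0.0259), -0.61 ± 0.16 in HeJ at 24 h (adjusted p = 0.0225) and -0.03 in HeJ at 48 h. The strain difference of the 48 h change did not pass (-0.55 ± 0.23). The OuJ calls were lost without OuJ air replicate 1 or 2. At 24 h the OuJ call was also lost with median centring and without OuJ 24 h replicate 2 or 3. At 48 h it was also lost without OuJ 48 h replicate 1 or 3. The HeJ call was lost without any 1 of the HeJ air arrays and without HeJ 24 h replicate 1. It was also lost without the 4 arrays with a suffix, which leaves 1 array at HeJ 24 h.

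Psme1 and Tapbp passed in HeJ at 24 h alone. Psme1, a chain of the proteasome activator PA28, read 3089, 3210.3 and 3158 in HeJ air and 2451, 2461 and 2521 at 24 h, a change of -0.35 ± 0.10 (adjusted p = 0.0347, limma). Tapbp (tapasin), which holds MHC class I at the transporter, read 3720.3, 3908 and 3755 in HeJ air and 2275, 3120.4 and 2586 at 24 h, a change of -0.52 ± 0.13 (adjusted p = 0.0174). The arrays were separated for both. In OuJ neither passed, with changes of -0.25, -0.28 and -0.27 for Psme1 at 6, 24 and 48 h, and -0.05, -0.22 and -0.33 for Tapbp. All exposed OuJ arrays of Psme1 were nonetheless below OuJ air, and so were those of Tapbp at 24 and 48 h. The call of Psme1 was lost in 9 settings, including without any 1 of the HeJ air or HeJ 24 h arrays, and that of Tapbp when replicate 2 of HeJ air or replicate 1 or 3 of HeJ 24 h was left out. The second probe set of Tapbp gave 0.19 in place of -0.52, and the call was lost when probe sets were averaged. It was also lost without the 4 arrays with a suffix, which leaves 1 array at HeJ 24 h.

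The chemokines Cxcl9 and Cxcl10, ligands of the receptor CXCR3, did not pass the signal filter. Their signals over the 24 arrays were 11.3 to 59 and 14.5 to 133. Cxcl10 read 41.5, 15 and 29.0 in OuJ air, 89.8, 120.5 and 55.3 at 24 h, and 132.9, 34.7 and 106.3 at 48 h. The 24 h arrays were all above air and the 48 h arrays overlapped with air, with differences of 1.23 and 1.17 that were not tested. In HeJ its differences were 0.52, 0.27 and 0.48 at 6, 24 and 48 h, and those of Cxcl9 ran from -0.53 to 0.27 over the 6 comparisons.

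The strains were compared in air and in their changes, which asks whether the response depends on Tlr4 or on another difference between them. In air, Iigp1 was 1.59-fold higher in OuJ (0.67 ± 0.13, adjusted p = 0.0126, limma), the 1 gene of 34 called (2.94%, beside 0.387% of all genes called higher). The Gapdh 5' to 3' ratio also separated these groups, at 0.781 to 0.933 in OuJ air and 0.511 to 0.621 in HeJ air, and its part in the difference was not tested. For Iigp1 the 3 OuJ air arrays were all above the 3 HeJ air arrays, and the call was lost without OuJ air replicate 2 or HeJ air replicate 2. It was also lost with only the groups compared, with code series 3 alone and without the 4 arrays with a suffix. The other 5 GTPases had estimates from 0.33 to 0.77 that did not pass. OuJ air replicate 2 was the highest array for each GTPase.

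The strain differences of the ozone changes called 0 of the 34 genes in limma at each time. At an unadjusted p under 0.05 there were 4 at 6 h, 2 at 24 h and 3 at 48 h. Over all genes 0.0125% were called at 6 h, 0.0125% at 24 h and 0% at 48 h in either direction. At 24 h and 48 h the arrays of the strains also differ in code series, so strain and code series cannot be told apart there. For all 6 GTPases the estimate was more negative in OuJ at each time, except that of Gbp2b at 24 h with median centring, with medians of -0.56, -0.29 and -0.38, and the same OuJ air arrays enter all of these values. Of those air arrays, replicate 2 was the highest for each of the 6 genes. The smallest adjusted p was 0.759 for Gbp2b at 6 h (-0.61 ± 0.21), 0.459 for Iigp1 at 24 h (-0.52 ± 0.18) and 0.513 for Psmb10 at 48 h (-0.55 ± 0.23). On its second probe set Iigp1 changed at 24 h by -1.15 in OuJ and by -0.94 in HeJ. Calls shared by the strains were Gbp2b, Irf8, Nmi and Psmb10 at 24 h, which is 4 of 11 in OuJ and 4 of 6 in HeJ, and Ifit2, Nmi, Psmb8, Psmb9 and Tap1 at 48 h, which is 5 of 11 and 5 of 7.

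**Figure D4:**
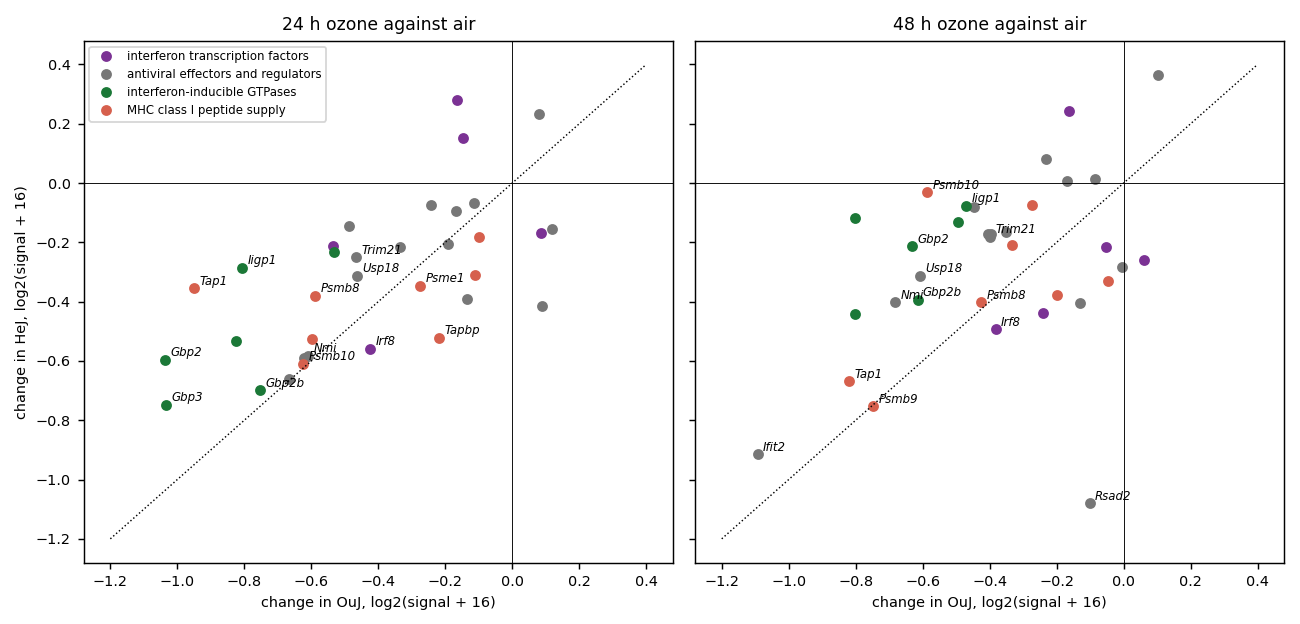
Change of each of the 34 genes in OuJ (x axis) against its change in HeJ (y axis), both in log2(signal + 16), at 24 h and at 48 h, coloured by role; names are given for genes called in either strain and the dotted line marks equal changes. Rsad2 at 48 h lies at -0.10 in OuJ and -1.08 in HeJ, and the 6 GTPases lie above the dotted line in both panels, which Gbp2b at 24 h crosses with median centring.

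Between 24 h and 48 h of ozone few genes moved. In OuJ limma called 0 of 34, with 4 at an unadjusted p under 0.05, and 0.15% of all genes were called in either direction. In HeJ Psmb10 rose by 0.58 ± 0.16 (1.49-fold, adjusted p = 0.0388, limma), 2.94% of the genes beside 2.62% of all genes called higher, a share near the background. The call was lost without HeJ 24 h replicate 1, HeJ 48 h replicate 1, 2 or 3, and in 4 other settings. All 6 GTPases had estimates above 0 from 24 h to 48 h in each strain, except Igtp and Irgm1 in OuJ with median centring, with medians of 0.18 in OuJ and 0.26 in HeJ, and none of these passed. With median centring 40.6% of all called genes in HeJ were lower, in place of 52.1%, and in OuJ 47.6% in place of 0%.

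Of 60 other interferon-stimulated genes on a wider list, 31 were tested. In OuJ 5 fell and 1 rose at 24 h with a median of -0.34, and 6 fell at 48 h with a median of -0.20. In HeJ 3 fell at 24 h with a median of -0.16 and 5 fell at 48 h with a median of -0.22. The lower calls are 16.1%, 19.4%, 9.68% and 16.1% of the list, beside the shares of 3.42%, 4.24%, 3.96% and 6.47% over all genes. The 1 higher call in OuJ at 24 h is 3.23% of the list, near the 3.16% called higher over all genes. Ms4a4c, a membrane protein of lymphoid and myeloid cells, fell by 1.33 ± 0.22 in OuJ at 24 h (adjusted p = 0.000522, limma), and Ifi47, a further GTPase of the immunity-related family, by 0.76 ± 0.17 (adjusted p = 0.00601). Gbp7 fell by 0.78 ± 0.16 in HeJ at 24 h (adjusted p = 0.00432) and by 0.64 ± 0.16 at 48 h (adjusted p = 0.0129). Ifitm1 rose by 0.51 ± 0.12 in OuJ at 24 h (adjusted p = 0.0125). At 6 h limma called 0 of the 31 in either strain, with 8 in OuJ and 5 in HeJ at an unadjusted p under 0.05.

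Few genes of interferon signalling were called. Of 21 tested genes for interferons, their receptors and their signalling (35 listed), 2 fell and 1 rose in OuJ at 24 h, and 1 rose at 48 h. In HeJ 1 fell and 2 rose at 24 h, and 2 rose at 48 h. A count of 1 is 4.76% of this list and a count of 2 is 9.52%, and with so few calls nothing is read from them about the list. Socs3, a feedback inhibitor of JAK and STAT signalling, rose by 1.52 ± 0.29 in OuJ at 24 h (adjusted p = 0.00205, limma), by 1.31 ± 0.29 in OuJ at 48 h (adjusted p = 0.00651), by 1.64 ± 0.29 in HeJ at 24 h (adjusted p = 0.00141) and by 1.64 ± 0.29 in HeJ at 48 h (adjusted p = 0.000678). Ptpn6, the SHP-1 phosphatase of blood cells, fell by 0.65 ± 0.18 in OuJ and by 0.94 ± 0.18 in HeJ at 24 h (adjusted p = 0.0363 and 0.00297).

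The MHC class I heavy chains and their assembly factors, 11 tested of 20 listed, had 0 calls in limma in OuJ at 24 h and 48 h and in HeJ at 24 h, with 1, 2 and 1 at an unadjusted p under 0.05. The chaperone gene Calr alone rose in HeJ at 48 h, by 0.62 ± 0.14 (adjusted p = 0.00387, limma). The heavy chains H2-K1 and H2-D1 had changes of -0.26 and -0.24 in OuJ at 24 h that did not pass. The constitutive proteasome subunits and other activators, 5 of 5 tested, had 0 calls in limma in OuJ at 24 h and 48 h, with 1 each at an unadjusted p under 0.05. In HeJ at 48 h Psmb5 rose by 0.55 ± 0.12 (adjusted p = 0.00395) and Psmb7 by 0.31 ± 0.10 (adjusted p = 0.0482). Psmb8 and Psmb9 fell in that same comparison, and Psmb5 is the subunit that Psmb8 replaces. The difference between these changes was not tested.

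Lymphocyte markers were lower in the same comparisons, and their part in the changes of the interferon genes was not tested. Of 7 tested B cell markers 7 fell in OuJ at 24 h, and 6 of 7 fell in OuJ at 48 h and in HeJ at 24 h and 48 h. Over all genes 3.42%, 4.24%, 3.96% and 6.47% were called lower in these comparisons. The summed signal of the 9 B cell markers with a probe set was 4031 to 5018 in OuJ air, 1352 to 1967 at 24 h and 2044 to 2401 at 48 h. In HeJ it was 4323 to 5319 in air, 1809 to 2507 at 24 h and 1881 to 2459.6 at 48 h. At 6 h it was 2492 to 4084 in OuJ and 2740.0 to 3810 in HeJ, and limma called Cd22 and Cd79a, 2 of the 7 markers, lower in the average over the strains in which Gbp2b, Irf8 and Nmi were called, with a median change of -0.54 over the list. Over all genes 0.387% were called lower in that average. No marker was at a signal of 0 on any array.

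T and NK cell markers were lower as well, and the shares over all genes are those given for the B cell markers. Of 5 tested T cell markers 4, 1, 1 and 4 fell in OuJ at 24 h and 48 h and in HeJ at 24 h and 48 h, and of 5 tested NK cell markers 3, 1, 2 and 4 fell. The summed T cell signal, over 11 genes, was 2214 to 2611 in OuJ air and 1102 to 1229 at 24 h, and in HeJ 1936 to 2495 in air and 1142 to 1440.2 at 24 h. At 48 h it was 1198 to 1501 in OuJ and 1062 to 1272 in HeJ. The summed NK cell signal, over 8 genes, was 2342 to 3370.4 in OuJ air, 1181 to 1413 at 24 h and 1517 to 1908 at 48 h, and in HeJ 2237 to 2285 in air, 992 to 1618 at 24 h and 974 to 1196 at 48 h.

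Markers of other cell types were counted in the same way. Over all genes 3.42% and 4.24% were called lower in OuJ at 24 h and 48 h, and 3.96% and 6.47% in HeJ. Called higher were 3.16% and 3.7% in OuJ, and 3.16% and 5.69% in HeJ. The lists are short, and nothing is read from single calls. Of 10 endothelial markers 1 fell and 1 rose in OuJ at 24 h, 4 fell in OuJ at 48 h, 0 were called by limma in HeJ at 24 h with 8 at an unadjusted p under 0.05, and 7 fell in HeJ at 48 h. Of 5 neutrophil markers 2 fell in OuJ at 24 h and at 48 h and limma called 0 in HeJ, with 1 at an unadjusted p under 0.05 at each time. Of 9 macrophage and monocyte markers 1 fell in each comparison at 24 h and 48 h, and 2 rose in HeJ at 48 h. Of 3 dendritic cell markers limma called 0 in any comparison with air, also at an unadjusted p under 0.05. The ciliated cell marker Tppp3 fell in each of the 4 comparisons at 24 h and 48 h, by 0.83 ± 0.16 in OuJ at 24 h (adjusted p = 0.0027, limma), and 1 of 2 tested ciliated markers was called each time. Sftpd, 1 of 8 alveolar type 2 markers, and Gsta3, 1 of 6 club cell markers, rose in each of them, and Cbr2 of the club cell list fell in HeJ at 48 h. Of 7 alveolar type 1 markers Aqp5 fell in HeJ at 24 h and Cav1 in HeJ at 48 h. The part of these cell types was not tested either.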

How the data were processed

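The deposited table holds 1 signal intensity per probe set and array, made by the authors from Affymetrix arrays with GCOS 1.4, per the submitters' processing notes. No source used here gives the settings of that software. Trimmed means of 500.144 to 500.166 on all 24 arrays show a common scaling, and scanner files and detection calls were not used. Values were taken as log2(signal + 16). Gene symbols came from GEO's platform annotation, and a probe set was kept when its signal exceeded the median of all values, 218.3, on 3 or more arrays. Each gene was represented by its probe set with the highest mean, and the 8002 genes for which that probe set was kept were tested. A linear model with group means was fitted in limma 3.58.1 (R 4.3.3) with an intensity trend, 13 comparisons were drawn, and p-values were adjusted by Benjamini-Hochberg over all genes with a threshold of 0.05. The script was tested on simulated data. The genes and lists were chosen with earlier results of these data known, so their calls are not independent evidence. Any listed gene could be named, with values per array for those that passed; outside the list, up to 4 genes per pathway list and comparison with the smallest p. Each array is 1 mouse, and 3 arrays per group limit the precision. Alternatives covered normalization, pseudocount, filter, probe sets, trend, samples fitted, a replicate block and each array left out. Promoters came from RefSeq (GRCm38.p6), read with Python 3.11.15 and pandas 2.3.3.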

Additional observations from a re-analysis of the deposited data

How the results depend on the processing

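No called gene changed direction under any alternative run, and of 41 calls 9 held in every one. Of 26 results, which are a count of calls and a median change in each of 13 comparisons, 26 moved by no more than 1.5 times (counts) or the SD of 0.0971 between arrays (medians) under quantile normalization, either other pseudocount or the mean of probe sets, 25 without the intensity trend, 24 with median centring and 24 with a replicate block. The median of OuJ 48 h against 24 h, 0.02, turned to -3.4e-05 with quantile normalization, to -0.05 with median centring and, without OuJ 24 h replicate 2 or OuJ 48 h replicate 2, to -0.016 and -0.00084, and that of HeJ 48 h against 24 h, 0.07, to -0.018 without HeJ 24 h replicate 3. Counts of called genes are given with the reported count in parentheses. Median centring gave 7 (11) in OuJ at 24 h and 1 (3) at 6 h averaged. No filter gave 7 (11) in OuJ at 48 h, 4 (7) in HeJ at 48 h, 0 (1) for HeJ 48 h against 24 h and a median change of -0.33 (-0.44) in OuJ at 24 h. Fitting only the groups compared gave 0 for OuJ at 6 h, 6 h averaged, the strains in air and HeJ 48 h against 24 h, where no trend also gave 0 (1). Without the 4 arrays with a suffix these and HeJ at 24 h were 0, and code series 3 alone gave 0 for OuJ at 6 h, 6 h averaged and air. With the replicate number as a block the counts were 2 (1) in OuJ at 6 h and 5 (3) at 6 h averaged. The numbers were not taken to pair the samples, since 11 of 84 same-numbered pairs had a correlation over 0.1 (range -0.11 to 0.20), though 19 of 24 arrays correlated best with their own number, a hint from the data and not from the design. Leaving out 1 array at a time gave 0 to 3 in OuJ at 6 h, 6 to 12 at 24 h and 3 to 13 at 48 h, 3 to 7 in HeJ at 24 h and 3 to 8 at 48 h, 0 to 9 at 6 h averaged, 0 to 1 in air and 0 to 1 for HeJ 48 h against 24 h. The median change then ran from -0.23 to -0.042 in HeJ at 6 h and from -0.25 to -0.028 for the strain difference at 6 h.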
